A study of Mus musculus with 56 samples.

Results

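Solute carriers are the largest family of membrane transport proteins: each moves a particular kind of small molecule, such as a sugar, an amino acid, a nucleoside or a metal ion, across the plasma membrane or an organelle membrane. Their gene symbols begin with Slc, followed by a family number, a letter and a member number. The genes described here are the solute carriers detected in mouse blood: every gene of the array named Slc and a digit whose brightest probe was well above background on at least 42 of 56 arrays. This rule gave 148 of the 371 such genes on the array. Slc4a1, Slc11a2, Slc40a1, Slc25a37, Slc30a1 and Slc39a14 were left out by name, of which 5 passed the detection threshold, and 218 genes were below it.

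The study asked how gene expression in blood responds to 90Sr, a bone-seeking beta emitter that irradiates marrow and blood from inside the body. Whole blood RNA of C57BL/6 mice about 10 to 12 weeks old was hybridized to one-color Agilent arrays, 1 mouse per array. The 28 irradiated mice had received 200 kBq of 90Sr with an 85Sr tracer by tail vein injection, and the 28 controls are labeled only as controls. Each group had 4 mice on day 4 after injection and 6 on each of days 7, 9, 25 and 30, when blood was taken. Because each day has controls of its own, day and group are balanced, but the animals differ from day to day.

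Detection chose these genes, so their presence in blood is not a finding. Of the 148, 103 were well above background on all 56 arrays. At the edge of the rule, Slc35g1 passed with 42 arrays and Slc22a6 and Slc34a1 with 43, while Slc19a1 and Slc52a2 fell short with 41. A gene present only in control mice could not pass, since every member had to be above background in at least 14 of the 28 irradiated mice. Among the members 4 are not transporters although their symbols have this form: Slc4a1ap, Slc9a3r1, Slc9a3r2 and the pseudogene Slc2a4rg-ps. They met the rule and were kept.

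Blood holds nucleated white cells, platelets, red cells and reticulocytes, and a whole-blood array mixes the RNA of all of them. Red cell precursors are rich in carriers for glycine, heme, iron and mitochondrial cofactors, and lymphocytes and monocytes depend on amino acid carriers and on the endolysosomal carriers that serve nucleic acid sensing. In a bulk sample, fewer cells of a type and less RNA per cell cannot be told apart. Levels are given as the log2 processed signal minus the median of the same array, and a change is the irradiated minus the control mean on that log2 scale. A gene was called at a given day where limma's unadjusted p was under 0.001 and the change was at least 2-fold, the threshold used in the study's methods.

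The arrays differed in ways that touch these results. The number of spots well above background ranged from 17809 to 24698 in control mice and from 14389 to 22524 in irradiated mice. At day 4 each group lay on a slide of its own, so slide and treatment cannot be told apart there. At each later day 1 slide held 2 mice of each group and the other slides held 4 mice of 1 group. At days 7 and 30 the slide with 4 irradiated mice was also scanned on another day than all the other slides of the same day. The array farthest from its group was replicate 1 of the day 9 irradiated mice, with a root mean square distance of 0.69 on the log2 scale. All values below are relative to the array median. Scaling to the 75th percentile moved the change of the median gene by 0.48, 0.35, 0.39, 0.48 and 0.19 from the first to the last day, and the counts of called genes depend on this choice.

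With each array centered on its median, more solute carriers fell than rose during the first 25 days, and at day 30 more rose than fell. Both directions depend on the processing. At day 4, 31 members fell and 3 rose, against 20.1% of all 12543 detected genes called lower and 1.4% called higher. At day 7, 20 fell and 2 rose (background 12.4% lower and 2.06% higher). At day 9, 24 fell and 2 rose (15.1% lower and 3.4% higher). At day 25, 34 fell and 9 rose (22.4% lower and 4.9% higher). At day 30, 24 fell and 34 rose (17.5% lower and 18.6% higher). As shares of the 148 members, the lower calls were 20.9%, 13.5%, 16.2%, 23% and 16.2% and the higher calls 2.03%, 1.35%, 1.35%, 6.08% and 23%, each near the background of the same day, so these totals are not a result about solute carriers in particular. With the 75th percentile scaling the direction of this balance turned at the first 4 days: 7, 3, 8 and 8 members were called lower and 19, 20, 18 and 32 higher, and over all detected genes the share of calls that were lower went from 93.5% to 34.1% at day 4 and from 82.1% to 22.2% at day 25. Quantile normalization turned the balance at days 7 (6 lower, 10 higher) and 25 (11 lower, 20 higher). At day 30 the lower calls outnumbered the higher ones in 3 other settings. The deposited log2 values, which hold 84 members, gave 33 lower and 12 higher. They hold only 21 of the 34 members called higher here, all 21 still above 0, so the genes compared differ. Scan day as a block gave 11 and 7, with all 34 still above 0. Slide as a block gave 3 and 0. It compares only the 2 mice of each group on the shared slide, so this count shows no change of direction. There 33 of the 34 higher and all 24 lower members kept their sign, which is favored because these mice are part of the main comparison. With the deposited values 75.1% of the calls over all their genes at day 30 were lower, beside 48.4% over the 12543 genes used here.

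**Figure D1:**
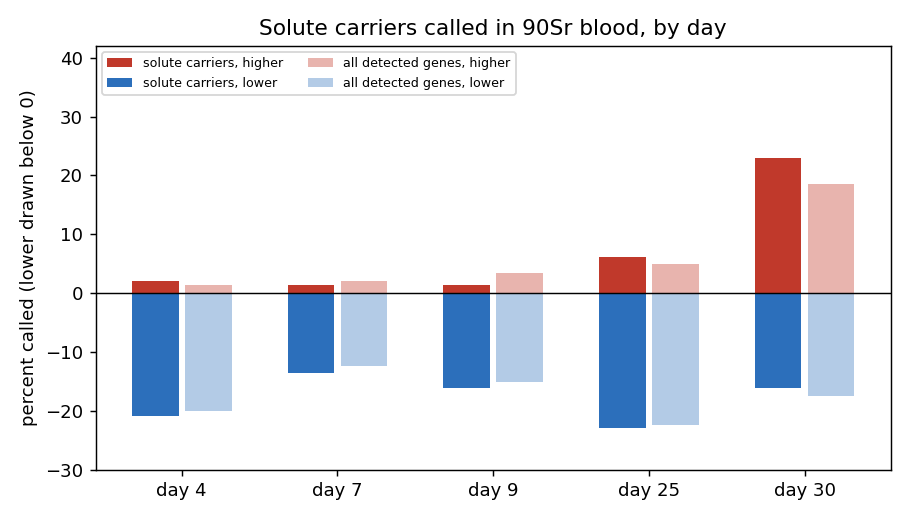
Percent of the 148 solute carriers (dark bars) and of all 12543 detected genes (pale bars) called higher (above 0) or lower (drawn below 0) in irradiated mice at each day, from 4 mice of each group on day 4 and 6 on later days. The dark and pale bars are close at every day; at day 30 the higher calls reach 23% of the solute carriers and 18.6% of all detected genes.

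Over the 5 days, 77 of the 148 members were called at least once and 71 never, where 49.2% of all detected genes were called at least once. Of the 77, 39 fell and 38 rose, and 0 did both. Calls that lasted ran downward: 15 members fell at all 5 days (background 7.81%) and 0 rose at all 5 (background 0.0319%). The change differed between days for 42 members by limma's F test at an adjusted p under 0.05 (background 29.2%). Among control mice alone, 101 members differed between days (background 67.8%).

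**Figure D2:**
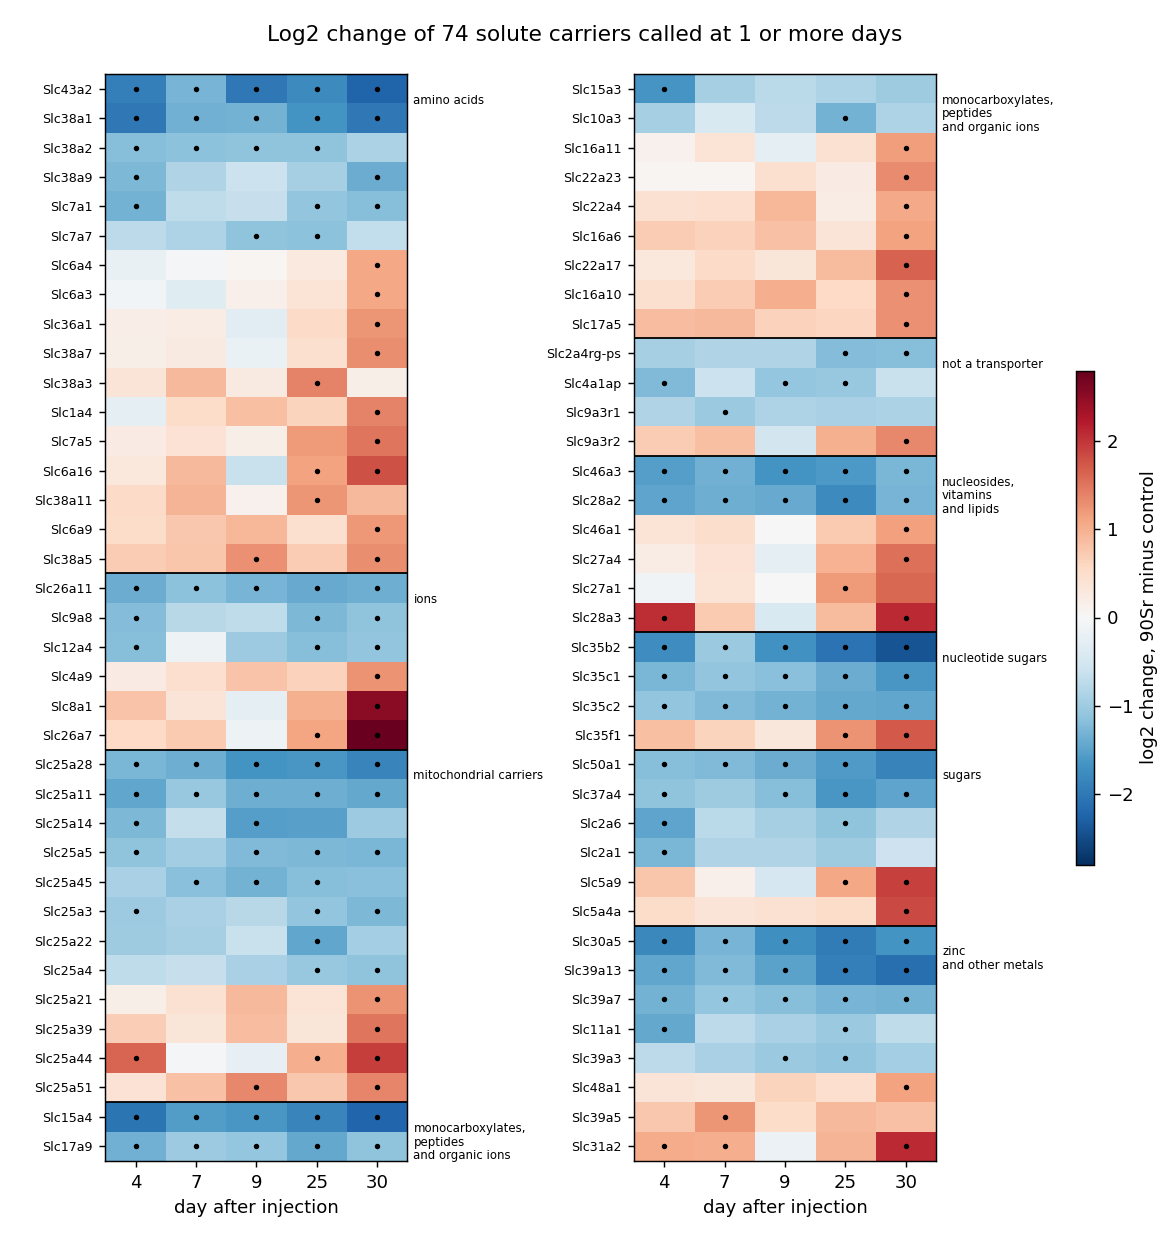
Log2 change, irradiated minus control, of 74 of the 77 solute carriers called at 1 or more days (rows, grouped by role and ordered by mean change) at each day after injection (columns). The role named nucleotide sugars is the Slc35 family, not all of which carry them. Black dots mark calls; blue rows with 5 dots are the 15 members lower at all 5 days, and most red dots stand in the day 30 column.

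The 15 members that fell at all 5 days come from most roles: Slc43a2 and Slc38a1 carry amino acids, Slc15a4 peptides and histidine, Slc17a9 nucleotides into vesicles, Slc25a11 oxoglutarate and Slc25a28 iron into mitochondria, Slc28a2 nucleosides, Slc46a3 lysosomal cargo, Slc26a11 anions, Slc35b2, Slc35c1 and Slc35c2 serve the Golgi, and Slc30a5, Slc39a7 and Slc39a13 carry zinc. Their changes ran from -2.41 to -1.02 over the 75 combinations of gene and day. Among the controls 1 of the 15 differed between control days at an adjusted p under 0.05, compared with 101 of all 148 members, and their median control level stayed between -0.27 and 0.20 of its mean over days while the irradiated median stayed between -1.72 and -1.21. The change differed between days for 1 of the 15, Slc35b2 (adjusted p = 0.0442, limma's F test). The 15 were chosen from these same data by a call at every day, which favors steady controls and a steady change. With the 75th percentile scaling all 75 changes were still below 0, from -2.23 to -0.63, and 36 passed both the p and the 2-fold threshold. None of the 15 was then called at all 5 days. With quantile normalization Slc15a4, Slc38a1 and Slc46a3 were. With another background correction (normexp) all 75 were below 0 and 1 was called. Within the slides that held both groups, every lower call of the family with a value kept its sign at days 7, 9, 25 and 30, and 20 of 20, 19 of 23, 10 of 34 and 12 of 24 reached 2-fold. The mice of these slides are part of the comparison that gave the calls, which favors a kept sign. At day 25 Slc15a4 was at -0.71 within the slide and at -1.85 over all mice, and Slc30a5 at -0.87 and -1.97. In 10 of the 15 genes the 4 irradiated mice of 1 slide all lay below the other 2 at day 25, and in 7 of the 15 at day 30. Of all 12543 detected genes, 1841 showed this order at day 25 and 1947 at day 30.

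**Figure D3:**
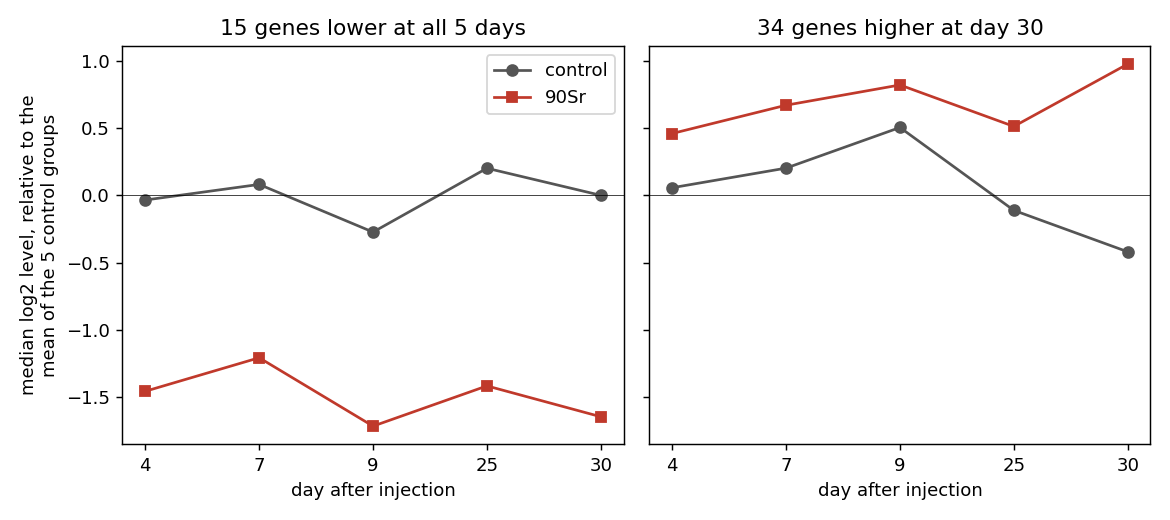
Median log2 level over the 15 genes lower at all 5 days (left) and over the 34 genes higher at day 30 (right), in control and irradiated mice, each gene relative to its mean over the 5 control groups, with days evenly spaced on the x axis. Both sets of genes were chosen from these same mice. On the left the control line stays between -0.27 and 0.20 and the irradiated line lies between -1.72 and -1.21; on the right the control line peaks at 0.51 at day 9 and is lowest, at -0.42, at day 30.

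Amino acid carriers formed the largest group, with 27 members, and moved both ways: 6 fell at 1 or more days, 12 rose and 9 were never called. Counts by role, here and below, are to be read against the 49.2% of all detected genes called at least once. Differences between roles were not tested. Slc43a2, a sodium-independent carrier of large neutral amino acids, was at 3.21, 2.96, 3.34 and 2.55 in the 4 day 4 controls and at 1.59, 0.98, 1.07 and 0.79 in the irradiated mice. Every irradiated mouse was below every control, also at each later day. The change was -1.91 ± 0.21 (SE) at day 4 and -2.24 ± 0.25 at day 30, when controls ran from 3.05 to 4.26 with a median of 3.47 and irradiated mice from 0.64 to 1.92 with a median of 1.46 (adjusted p = 5.31e-05 and 1.92e-05, limma).

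Slc38a1, a sodium-coupled glutamine carrier of lymphocytes and other cells, was at 5.43, 5.25, 5.80 and 5.27 in the day 4 controls and at 3.76, 3.23, 3.62 and 3.12 in the irradiated mice. The groups were apart at all 5 days, with changes of -2.01, -1.35, -1.32, -1.67 and -1.99. A second probe of Slc38a1, well above background on 32 arrays, gave -2.06, -1.44, -1.58, -1.87 and -2.30. The related Slc38a2, the carrier induced when amino acids run short, fell at days 4, 7, 9 and 25 by 1.18, 1.16, 1.13 and 1.13, and its day 30 change of -0.89 ± 0.24 was not called. Slc7a1, the main carrier of arginine and lysine, fell at days 4, 25 and 30.

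None of the 27 was called higher at days 4 or 7, 1 was at day 9, 4 at day 25 and 10 at day 30. Over all detected genes the higher calls ran the same way, from 1.4% at day 4 to 18.6% at day 30. Slc7a5, which with Slc3a2 forms the carrier of leucine and other large amino acids, rose by 1.5 ± 0.30 at day 30 (controls 4.49 to 6.49, median 5.75; irradiated mice 6.52 to 7.75, median 7.18). Its partner Slc3a2 was not called at any day, with changes between -0.06 and 0.55. Slc6a16, an orphan carrier, rose at days 25 and 30 by 1.13 and 1.78. The change differed between days (adjusted p = 5.46e-05, limma's F test). Its day 9 change was -0.62 over all mice but 0.14 within the slide that held both groups. The glutamine carrier Slc38a3 and its relative Slc38a11 rose at day 25, Slc38a3 by 1.39 ± 0.22. The control means of these genes spanned 3.54 (Slc38a3) and 1.17 (Slc38a11) between days. For Slc38a3 the day 25 controls were at 0.02 to 0.90 and the irradiated mice at 1.38 to 2.50. All of these lay below the day 4 controls, at 3.59 to 4.49.

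For Slc38a5, a glutamine and glycine carrier, day 9 controls lay between 8.19 and 8.92 with a median of 8.85, and irradiated mice between 9.18 and 10.25 with a median of 10.18. The groups did not overlap on any of the 5 days. The change was 1.28 ± 0.21 at day 9 and 1.29 ± 0.19 at day 30 (adjusted p = 0.000138 and 5.85e-05), and 0.71, 0.77 and 0.70 at days 4, 7 and 25, below 2-fold.

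Slc25a51, a mitochondrial NAD carrier, rose by 1.34 ± 0.20 at day 9 and by 1.38 ± 0.18 at day 30, and a second probe well above background on 56 arrays gave 1.55 and 1.33. Slc6a9, the glycine carrier that feeds heme synthesis, rose at day 30 by 1.22 ± 0.17, from a control median of 5.58 to 6.77. Slc25a39, a mitochondrial carrier needed for glutathione import, and Slc48a1, a heme carrier, rose at day 30 by 1.5 ± 0.29 and 1.13 ± 0.17. Slc22a4, a carrier of ergothioneine, rose by 1.06 ± 0.18. Within the day 30 slide that held both groups, Slc6a9, Slc25a39, Slc48a1 and Slc22a4 were higher by 0.90, 0.80, 0.77 and 0.82, below 2-fold. At day 9 the changes of Slc6a9, Slc25a39 and Slc22a4 were 0.93, 0.86 and 0.93 and were not called. Slc25a38, the mitochondrial glycine carrier of heme synthesis, was never called, with changes between -0.10 and 0.63.

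Marker genes of blood cells moved in the same samples. Of all detected genes 20.1%, 12.4%, 15.1%, 22.4% and 17.5% were called lower over the 5 days in turn. The shares called higher were 1.4%, 2.06%, 3.4%, 4.9% and 18.6%. On a list of 10 erythroid markers, all detected, 0, 1, 9, 0 and 7 were called higher over the 5 days in turn and 0 lower, with mean changes over days of 1.1 for Ahsp and 0.91 for Epb4.2, those farthest from 0 on the list; the mean level of the list ran from 5.94 to 7.09 in control mice and from 6.93 to 8.07 in irradiated mice. Of 9 detected B cell markers 7, 7, 6, 7 and 7 were called lower, among them Cd79a, Cd79b and Fcrla at all 5 days, and their mean level was 5.08 to 6.05 in controls and 3.36 to 4.91 in irradiated mice. Of 7 detected monocyte markers 5, 5, 5, 5 and 4 were called lower, Ccr2 and Cx3cr1 at all 5 days, with mean levels of 4.72 to 6.76 and 3.60 to 5.66. Of 10 T cell markers 1, 0, 0, 0 and 1 were called lower, of 6 NK cell markers 0 at every day, and of 9 neutrophil markers 2, 0, 0, 1 and 0. On the neutrophil list Il1r2 was called higher at day 30, and Mmp9 lower at days 4 and 25. Of 8 platelet markers 1 was called, Itga2b, higher at day 30. The mean changes over days were -0.92 for Bcl11b and -0.90 for Cd3g of the T cell list, -0.75 for Ncr1 and -0.68 for Klrb1c of the NK cell list, and 0.41 for Pf4 of the platelet list. The part of these cell types in the solute carrier changes was not tested.

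**Figure D4:**
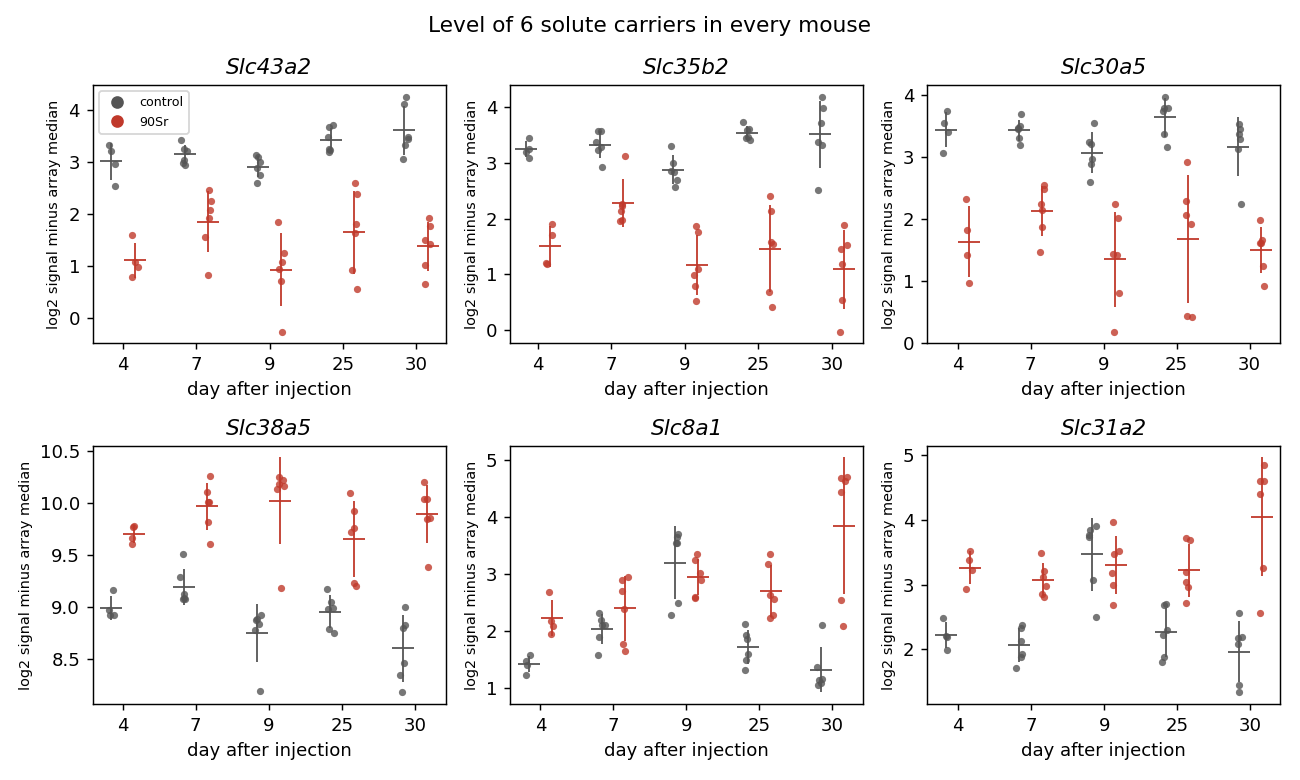
Log2 signal minus the array median of 6 solute carriers in every mouse (points; grey control, red irradiated), with the mean and SD of each group of 4 (day 4) or 6 mice. Slc43a2 and Slc30a5 are lower in every irradiated mouse at all 5 days and Slc38a5 higher, while Slc8a1 and Slc31a2 are high in 4 of 6 irradiated mice at day 30 and in 4 of 6 controls at day 9.

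Of 15 carriers of zinc and other metals, 5 fell at 1 or more days, 3 rose on their brightest probe (Slc31a2, Slc39a5 and Slc48a1) and 7 were never called. The 3 zinc carriers that fell at all 5 days act in the secretory pathway. Slc30a5 loads zinc into Golgi vesicles, and Slc39a7 and Slc39a13 release it from the endoplasmic reticulum and Golgi. They were picked by their calls in these data, and a difference between compartments was not tested. Slc30a5 (probe at chr13:101572862-101572921, mm9, minus strand) was at 3.55, 3.41, 3.75 and 3.07 in the day 4 controls and at 2.33, 0.97, 1.83 and 1.43 in irradiated mice. The groups were apart at all 5 days, with changes of -1.81, -1.31, -1.72, -1.97 and -1.67. One day 30 control was at 2.24, away from the other 5 but still above the highest irradiated mouse at 1.99.

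Slc39a13 fell by 1.46 ± 0.23 at day 4 and by 2.12 ± 0.32 at day 30, and Slc39a7 by 1.09 ± 0.16 at day 7 and 1.31 ± 0.21 at day 25. The zinc importers of the cell surface and other compartments varied: Slc39a3 fell at days 9 and 25, Slc39a1, Slc39a4, Slc39a6 and Slc39a11 were not called, and Slc39a5 rose at day 7 by 1.24 ± 0.19, where 1 of 6 controls and all 6 irradiated mice were well above background. Slc11a1, the metal carrier of the phagosome membrane in macrophages and neutrophils, fell at days 4 and 25 by 1.43 and 1.03.

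The promoter of Slc30a5 is shown because it holds the core letters of the metal response element, TGCGCNC, which the zinc-sensing factor MTF1 binds. The window is from RefSeq on GRCm38.p6, chr13:100833378-100833677, minus strand, 250 bases before to 50 after the annotated start, and capitals mark the match, here on the opposite strand and beginning 48 bases before the start. The same window also holds the E-box letters CACGTG, left in lower case.
Slc30a5: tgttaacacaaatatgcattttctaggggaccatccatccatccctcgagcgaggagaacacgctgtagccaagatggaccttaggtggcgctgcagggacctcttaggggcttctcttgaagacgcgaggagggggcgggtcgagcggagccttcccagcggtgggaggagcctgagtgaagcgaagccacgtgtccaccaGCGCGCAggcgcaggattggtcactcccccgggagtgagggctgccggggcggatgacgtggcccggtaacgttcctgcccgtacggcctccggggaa
These letters occur on either strand in 4 of the 12 members lower at all 5 days that have a window, Slc25a11, Slc30a5, Slc35b2 and Slc35c1, in 35 of 115 members with a window (30.4%) and in 17% of all 27025 genes with one. The GC box GGGCGG was in 11 of the 12, in 72.2% of the members and in 38.2% of all genes. The genes with a window include genes not detected in blood, and shares over the detected genes alone were not counted. A match is a description of the letters and not a binding site.

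Carriers of peptides, monocarboxylates and organic ions (22 members) held Slc15a4, a proton-coupled carrier of endolysosomes that Toll-like receptor signaling in B cells and plasmacytoid dendritic cells depends on. It lay between 6.09 and 6.40 in the day 4 controls and between 3.50 and 4.64 in the irradiated mice, 1 of which had no usable spot. Its changes were -2.04, -1.56, -1.64, -1.85 and -2.22 and the groups did not overlap at any day. The related Slc15a3 fell at day 4 by 1.66. The lactate carriers Slc16a1 and Slc16a3 were not called at any day. Slc17a5, the sialic acid exporter of lysosomes, rose by 1.29 ± 0.31 at day 30, from a control median of 9.68 to 10.88. This call was lost when any of 9 single arrays was left out, and within the slide that held both groups the change was 0.38. A second probe of Slc17a5, below the detection threshold with 10 arrays, gave -0.86 at day 30. Of the 22 members, 4 fell at 1 or more days and 8 rose, all 8 of them at day 30.

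Among 17 members of the Slc35 family, some of which bring nucleotide sugars into the Golgi, 3 fell at all 5 days, 1 rose and 13 were never called. Slc35b2, the carrier of the sulfate donor PAPS, was at 3.25, 3.09, 3.45 and 3.20 in the day 4 controls and at 1.71, 1.20, 1.91 and 1.19 in irradiated mice. Its change went from -1.05 ± 0.18 at day 7, where 1 irradiated mouse at 3.11 lay within the controls, to -2.41 ± 0.33 at day 30. Slc35c1, the GDP-fucose carrier needed for selectin ligands, fell by 1.28, 1.11, 1.18, 1.39 and 1.62. Slc35f1, an orphan of the family, rose at days 25 and 30.

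Of 20 mitochondrial carriers of the Slc25 family, 8 fell, 4 rose and 8 were never called, where 49.2% of all detected genes were called at least once. Slc25a28, the mitochondrial iron importer mitoferrin 2 of non-erythroid cells, fell at all 5 days, by 1.28, 1.37, 1.66, 1.63 and 1.85. Slc25a11, the oxoglutarate carrier of the malate-aspartate shuttle, fell by 1.46, 1.05, 1.38, 1.37 and 1.44. The ADP/ATP carriers Slc25a5 and Slc25a4 and the phosphate carrier Slc25a3 also fell: Slc25a5 at days 4, 9, 25 and 30 by 1.13 to 1.29, Slc25a3 at days 4, 25 and 30 and Slc25a4 at days 25 and 30.

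For the sugar carriers (13 members) the facilitative glucose carriers did not share 1 course. Slc2a1, the widely expressed GLUT1, fell at day 4 by 1.27 ± 0.22 and Slc2a6 at days 4 and 25 by 1.48 and 1.13, whereas Slc2a3, the GLUT3 of leukocytes and platelets, was not called at any day (0.12 at day 4). Slc50a1, a sugar carrier of the SWEET family, fell at days 4 to 25 by 1.19, 1.24, 1.39 and 1.60. Its day 30 change of -1.87 ± 0.49 was not called, with controls between 4.40 and 5.34 and irradiated mice between 0.31 and 3.91 with a median of 3.74. A second probe of Slc50a1, on 56 arrays, gave -0.45, -0.38, -0.67, -0.40 and 0.55, so its 2 probes disagree in size and, at day 30, in sign. Slc37a4, the glucose-6-phosphate carrier that neutrophils depend on, fell at days 4, 9, 25 and 30. The sodium-coupled sugar carriers Slc5a9 and Slc5a4a rose at day 30, Slc5a9 by 1.91 ± 0.30.

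Of 12 carriers of nucleosides, vitamins and lipids, 2 fell at all 5 days. Slc28a2, a concentrative purine nucleoside carrier, fell by 1.47, 1.37, 1.41, 1.78 and 1.30, with 5 usable controls at day 9. Slc46a3, a lysosomal carrier, fell by 1.55, 1.35, 1.68, 1.61 and 1.28. Slc28a3, a nucleoside carrier related to Slc28a2, went the other way at day 4: controls were at 3.05, 3.46, 3.23 and 2.19 and irradiated mice at 5.11, 4.86, 5.01 and 5.21, a change of 2.07 ± 0.24 (adjusted p = 6.62e-05). At day 30 it was 2.09 ± 0.36 and at day 9 -0.43 ± 0.36. Within the slide that held both groups it was 0.97 at day 30 and 0.71 at day 9, where the sign is the opposite of that over all mice. Slc27a1, which takes up long-chain fatty acids, rose at day 25 by 1.19 ± 0.26.

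The 4 members that are not transporters were each called at 1 or more days. Slc4a1ap fell at days 4, 9 and 25, Slc9a3r1, a scaffold protein that binds ion carriers, fell at day 7, Slc2a4rg-ps fell at days 25 and 30, and Slc9a3r2 rose at day 30 by 1.35 ± 0.31 on its brightest probe. A second probe of Slc9a3r2, well above background on 46 arrays, gave 0.15 at day 30.

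Of 18 ion carriers, 4 fell and 3 rose. Slc26a11, an anion carrier of lysosomes and other membranes, fell at all 5 days by 1.15 to 1.42. The potassium-chloride cotransporter Slc12a4 fell at days 4, 25 and 30. Slc26a7, an anion exchanger, rose by 2.77 ± 0.51 at day 30: controls lay between -2.47 and 0.32 with a median of -0.14, and irradiated mice between 0.40 and 3.10 with a median of 2.70 (adjusted p = 0.000244). It was well above background in 3 of these controls and 5 of these irradiated mice, so the size rests in part on signals near background, and within the shared slide it was 0.79. At day 25 it had risen by 1.09 ± 0.22.

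Slc8a1, the sodium-calcium exchanger, rose by 2.53 ± 0.43 at day 30 (adjusted p = 0.000157). Controls lay between 1.05 and 2.11 with a median of 1.16 and irradiated mice between 2.08 and 4.70 with a median of 4.54, so that the groups just overlapped. At the other days its changes were 0.80, 0.36, -0.25 and 0.99 and were not called (0.58 at day 9 within the shared slide), and the change differed between days (adjusted p = 0.000124). Its 2 other probes, below the detection threshold with 18 arrays and 1 array, gave 0.76 and 0.89 at day 30. Slc31a2, a low-affinity copper carrier of endosomes, rose at days 4, 7 and 30 by 1.04 ± 0.16, 1.01 ± 0.15 and 2.08 ± 0.36. A second probe of Slc31a2, well above background on 40 arrays, pointed the other way at every day, with changes of -1.12, -0.74, -1.32, -1.58 and -1.45, so no direction can be given for this gene. Slc25a44, a mitochondrial carrier of branched-chain amino acids, rose at days 4, 25 and 30 by 1.63, 1.01 and 1.93 on its brightest probe, while a second probe on 42 arrays gave -0.22, -0.34 and 0.01.

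Over the family, 19 members had another probe that passed the detection threshold. In 22 combinations of such a probe with a called day it had the same sign in 19 and the opposite sign in 3, in Slc25a44 and Slc38a9. The same sign did not mean the same size, as for Slc9a3r2 at day 30 (0.15 beside 1.35). The median GC content of the probes was 41.7% for the 15 members lower at all 5 days and 41.7% for the 34 higher at day 30, beside 43.3% for the members never called.

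The promoters of Slc8a1 and Slc31a2 are shown for an ion and a metal carrier whose brightest probes were higher at day 30, though the second probe of Slc31a2 was not, with an AGATAA match, the letters that GATA factors of blood cells bind, and a CACGTG match, the E-box bound by factors such as MYC and TFEB. Both windows are from RefSeq on GRCm38.p6, chr17:81738338-81738637, minus strand, and chr4:62286179-62286478, plus strand.
Slc8a1: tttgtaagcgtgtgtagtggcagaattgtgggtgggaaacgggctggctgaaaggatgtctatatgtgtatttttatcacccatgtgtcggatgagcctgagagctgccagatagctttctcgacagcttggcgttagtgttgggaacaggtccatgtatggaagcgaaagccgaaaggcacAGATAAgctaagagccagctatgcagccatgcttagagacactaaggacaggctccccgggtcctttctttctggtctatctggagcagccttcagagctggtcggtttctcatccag
Slc31a2: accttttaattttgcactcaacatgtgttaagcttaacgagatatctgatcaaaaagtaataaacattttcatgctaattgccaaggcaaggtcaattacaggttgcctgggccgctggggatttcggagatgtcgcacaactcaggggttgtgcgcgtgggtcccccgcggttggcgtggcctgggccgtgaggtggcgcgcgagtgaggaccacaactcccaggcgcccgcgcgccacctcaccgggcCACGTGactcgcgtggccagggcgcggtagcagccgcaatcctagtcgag
Among the 24 members higher at day 30 that have a window, AGATAA was in 3 (12.5%, beside 12.7% of all genes) and CACGTG in 7 (29.2%, beside 8.09% of all genes and 18.3% of the members), on either strand. Here too all genes means those with a window, detected in blood or not, so the shares are not like for like.

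The rises of day 30 differed with the slide. At day 30 the 4 irradiated mice that shared a slide had Slc8a1 between 4.44 and 4.70, and the 2 that shared a slide with 2 controls had 2.08 and 2.55. In 19 of the 34 members higher at day 30 the 4 mice of the first slide all lay above the 2 of the second, and in 0 all below. The same genes were high in some controls of day 9, where Slc8a1 was between 3.54 and 3.71 in the 4 controls of 1 slide and at 2.28 and 2.49 in the 2 of another, and 21 of the 34 showed this order. In the irradiated mice of day 25 16 of the 34 showed it, and in those of day 7 0 did and 11 had the opposite order. For all 148 members the counts were 33 at day 30 and 39 at day 9, and for all detected genes the shares were 20.2% and 26.5%. In the irradiated mice of day 25, 31 of the 148 members and 22.7% of all detected genes showed it. In those of day 7, 12 members and 910 of the 12543 detected genes showed it, and 15 members and 1207 genes had the opposite order.

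Within the day 30 slide that held both groups, 33 of the 34 kept the sign of the change and 9 reached 2-fold. Its mice are part of the comparison that gave the day 30 calls, which favors a kept sign in both directions. Slc8a1 was higher by 1.08 and Slc38a5 by 1.04, but Slc26a7 by 0.79 and Slc31a2 by 0.78, and Slc35f1 was at -0.05. Of the 24 members lower at day 30, all 24 kept their sign within the slide and 12 reached 2-fold, among them Slc38a1 at -1.88, Slc30a5 at -1.80 and Slc15a4 at -1.68. With scan day as a block, 7 members were called higher and 11 lower at day 30. With slide as a block, the counts were 0 and 3 on day 30, 0 and 0 on day 25, 0 and 9 on day 9, and 2 and 22 on day 7.

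**Figure D5:**
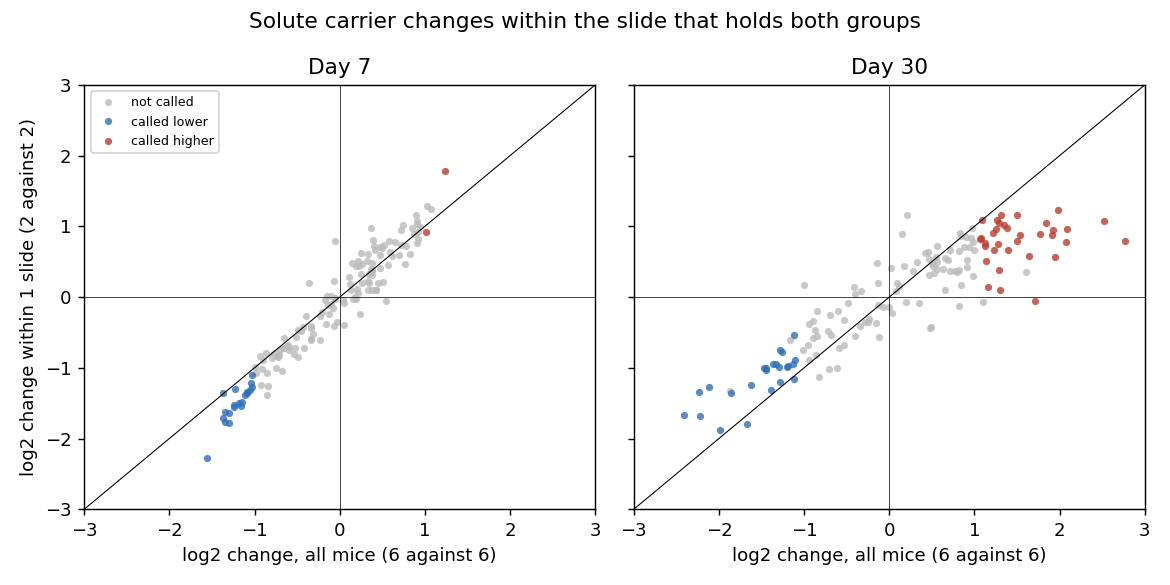
Log2 change of each of the 148 solute carriers over all mice (x axis, 6 against 6) and within the 1 slide that held 2 mice of each group (y axis), at day 7 (left) and day 30 (right), with the line of equality. At day 7 all 22 called members keep their sign within the slide. At day 30 most members called higher lie below the line of equality, and Slc26a7 goes from 2.77 to 0.79. The mice of the slide are also part of the 6 against 6, so the axes share data and a kept sign is favored.

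For 33 of the 34 the control days differed, and for 26 of the 34 the change differed between days. For 22 of the 34 the lowest control mean was at day 30, beside 59 of all 148 members. The 34 were chosen by their day 30 change in these same data, which favors low day 30 controls and a change that differs between days. With slide as a random block, 15 of the 148 members differed in change between days, compared with 42 without it.

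Other genes of related pathways were called at shares to be read against those over all detected genes, which were 20.1%, 12.4%, 15.1%, 22.4% and 17.5% lower and 1.4%, 2.06%, 3.4%, 4.9% and 18.6% higher. Of 15 detected glycolytic enzymes 3, 2, 3, 3 and 1 were called lower and 0 higher; Hk3 and Pfkp had the largest mean changes, -1.13 and -1.02. Of 7 detected subunits of sodium and calcium pumps, 2, 0, 1, 2 and 2 were called lower and 1 higher, at day 30, and the mean change of Atp1b1 was -1.22. Of 13 genes of the amino acid response 1, 1, 2, 4 and 3 were called lower and 2, 0, 1, 1 and 1 higher, with mean changes of -1.59 for Nupr1 and -1.20 for Phgdh. Of 7 pyruvate carrier and mitochondrial channel genes Vdac2 was called lower at day 25 and Mpc2 higher at days 9 and 30.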

How the data were processed

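Globin-reduced whole blood RNA was hybridized to one-color mouse arrays. Per the file headers each deposited scanner file gives the background-subtracted processed signal of every spot as an intensity, with other columns that flag spots well above background, saturated or outlying. The submitters' processing notes name Feature Extraction 10.7 and the headers 11.5.1.1. Per the methods the authors took log2 values and normalized each array to its median. The deposited table of log2 values (14208 entries, 14162 matched to a probe) equals the log2 processed signal up to 1 constant per array.

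Here control and outlier-flagged spots were removed, the log2 processed signal was centered on each array's median, spots of a probe were averaged, and the brightest probe stood for its gene. Tests covered the 12543 genes whose probe was well above background on 42 or more of 56 arrays. Irradiated and control mice were compared at each day by a limma 3.58.1 fit of that day's arrays (R 4.3.3). A call needed an unadjusted p under 0.001 together with a 2-fold change, and adjusted p-values are Benjamini-Hochberg over all 12543 genes. Differences between days and between control days were F tests at an adjusted p under 0.05 in 1 fit of all 10 groups. The numbers of mice and arrays limit the precision. The p-values rest on the spread between the arrays of a group, 1 mouse each, without a term for slide. At the later days this spread mixes mouse and slide. At day 4, with each group on 1 slide, differences between slides are not in it.

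The fit was tested on simulated data with 200 of 12543 genes changed: at day 30, 84% of changes of 1.5 and 98% of changes of 2 on the log2 scale were recovered, with 5 false calls, and at day 4, 95% and 98% with 3. The simulated arrays had independent noise and no slide, scan day or scaling differences. The numbers of false calls therefore do not carry over to these arrays, where slide and treatment go together in whole or in part. Gene symbols are those of the files, and all 148 members matched a RefSeq symbol. Promoter windows were found for 115 of them. Probe positions are on mm9 as in the files.

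The members, gene lists and tests were chosen with earlier results of these data known. The genes named were the 5 called with the largest change in each direction and day whose groups did not overlap, up to 12 called at all 5 days, the 5 with the smallest p for a difference between days, the member with the largest mean change in each direction in each role, those at the edge of detection, those that are not transporters, and 2 genes of each list. Slc17a9, Slc35c2, Slc39a7, Slc38a2, Slc7a1, Slc7a5, Slc3a2, Slc6a9, Slc25a39, Slc25a38, Slc48a1, Slc22a4, Slc16a1, Slc16a3, Slc15a3, Slc2a1, Slc2a3, Slc2a6, Slc37a4, Slc25a3, Slc25a4, Slc25a5, Slc11a1, Slc12a4, other Slc39 genes, Slc38a9 and Cd79a were chosen after their values were seen. Single results of a few genes are not reported here, though the counts include them. Alternatives were other scalings, background correction, filters, probe choice, the deposited log2 values, thresholds, blocks for replicate number, slide or scan day, and each array left out in turn.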

Additional observations from a re-analysis of the deposited data

Results flagged for a closer look

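In 7 of 169 groups of 4 to 6 mice tested over 17 genes, all 7 of them groups of 6, 1 mouse stood apart from the rest, where chance flags about 1 in 20 groups. The measure is the gap to the nearest mouse divided by the range of the group. For Slc15a4 it was 0.628 in the day 7 controls (a mouse at 6.65, the next at 6.35) and 0.658 in the day 7 irradiated mice (3.23, the next at 4.72). For Slc26a11 it was 0.687 in the day 9 controls (2.37 and 1.79), and for Slc30a5 0.682 in the day 30 controls (2.24 and 3.13). For Slc35b2 it was 0.735 in the day 7 irradiated mice (3.11 and 2.26), for Slc46a3 0.73 in the day 30 controls (2.85 and 4.04), and for Slc8a1 0.702 in the day 30 controls (2.11 and 1.37).

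The change between irradiated and control mice differed between days for 12 of the genes named here by limma's F test. The adjusted p was 5.46e-05 for Slc6a16, 0.000121 for Slc25a44, 0.000124 for Slc8a1, 0.000132 for Slc5a9, 0.000192 for Slc28a3, 0.000291 for Slc26a7, 0.000468 for Slc31a2 and 0.000538 for Slc5a4a. It was 0.0071 for Slc25a51, 0.00717 for Slc9a3r2, 0.0152 for Slc27a1 and 0.0442 for Slc35b2. With slide as a random block the number of members with such a difference went from 42 to 15.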

How the results depend on the processing

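Counts are members called higher and lower. With the 75th percentile scaling they were 19 and 7, 20 and 3, 18 and 8, 32 and 8 at days 4, 7, 9 and 25, and with quantile normalization 8 and 12, 10 and 6, 5 and 15, 20 and 11. With normexp they were 0 and 0, 0 and 0, 0 and 1, 0 and 0, 10 and 0 over the 5 days, 5 members differed in change between days and 28 between control days; the SD over arrays of the median detected gene was 0.6 after normexp and 0.234 before. With an adjusted p under 0.05 and no minimum change they were 32 and 60, 46 and 54, 23 and 56, 40 and 64, 66 and 48, and with 2-fold added 4 rose at day 7. The deposited log2 values, which hold 84 members, gave 1 higher and 21 lower at day 7 and 12 higher and 33 lower at day 30. Slide as a fixed block gave 0 and 9 on day 9, 0 and 0 on day 25 and 0 and 3 on day 30; as a random block it gave 5 higher at day 25, 15 differing between days and 60 between control days. Scan day as a block gave 7 and 11 at day 30. Leaving out 1 array at a time gave 2 to 4 higher and 30 to 33 lower at day 4, 1 to 5 and 14 to 23 at day 7, 2 to 9 and 21 to 27 at day 9, 5 to 15 and 26 to 38 at day 25, 29 to 40 and 21 to 31 at day 30, 35 to 63 differing between days and 87 to 105 between control days. The 9 came without irradiated replicate 1 at day 9, the 14 and 15 at day 25 without control replicate 6 and irradiated replicate 2, the 5 there without irradiated replicate 5. At day 7, 5 rose without irradiated replicate 3 or 4, and 1 without irradiated replicate 2 or 5 or control replicate 3 or 4. Of 101 calls of named genes, 84 held without any 1 array; Slc17a5 at day 30 was lost without any of 9 arrays, Slc35f1 at day 30 without any of 8, Slc25a44 and Slc6a16 at day 25 without any of 7 and 6, and Slc31a2 at day 7 and Slc9a3r2 at day 30 without any of 5. Slc31a2 at day 4 turned to -0.065 with normexp and Slc35f1 at day 30 to -0.051 with slide as a fixed block. The replicate block gave 3 and 31, 2 and 20, 2 and 24, 6 and 35, 36 and 27; same-numbered mice correlated above 0.1 in 13 of 28 pairs, among them all 4 at day 4 (0.137 to 0.523), where the block left both counts as they were, and not in every pair at any later day. The causes were not tested.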
